A study of Homo sapiens with 12 samples.

Results

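The 43 genes described here are androgen-responsive genes other than the classic prostate markers. They were chosen by name, as genes known to respond to androgens, but with earlier results of these data known. All 43 were found among the 18668 genes of the deposited table. Their mRNA was sequenced in 22Rv1, an established line of castration-resistant prostate carcinoma cells, labelled wild type and kept in medium with fetal bovine serum. After 24 h with 1 of 4 treatments, cells were lysed: vehicle, enzalutamide (a clinical inhibitor of androgen signalling), an autophagy-activating ligand, or a degrader, the compound under study. Each group had 3 libraries, labelled as independent biological replicates of the same line, and doses were not given in the sources used here.

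Androgens change transcription in luminal prostate cells through a hormone-activated transcription factor that binds short inverted repeats, the androgen response elements, mostly in distal enhancers. The genes it raises serve secretion, lipid and sugar metabolism, vesicle traffic and feedback on growth signals, and many of them are also under other controls. In lines that grow without added androgen, part of this programme stays on, and antagonists lower the part that still depends on the hormone-binding form.

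Each library held between 55.5 and 77.2 M counted reads. The 43 genes together took 0.443 to 0.471% of the reads in the 6 vehicle and ligand libraries and 0.394 to 0.417% in the 6 enzalutamide and degrader libraries, ranges that did not overlap. All 10 luminal prostate markers were listed, with a summed level of 2920 to 3710 CPM per library, CPM being counts scaled to a common library size. Of 12 basal, stromal, endothelial and blood markers, 5 were listed, with a summed level of 31.2 to 40.2 CPM; the table lists no gene that had 0 reads in any library, and KRT5, TP63, PECAM1 and PTPRC were among those absent from it. The mean level of 15 hypoxia and glycolysis genes differed between replicates, at 6.44, 5.96 and 6.17 log2 CPM in vehicle replicates 1, 2 and 3, and was highest in replicate 1 of every group. All 43 genes passed the filter on low counts. The least abundant was ALDH1A3, with as few as 12 reads in a library, and the others had at least 217.

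Promoter sequence was available for 36 of the 43 genes in RefSeq's table for GRCh38.p14, a later build than the GRCh37 of the submitters' processing notes. The window searched ran from 250 bases before to 50 bases after the gene's start, with 1 start used per gene. The last bases of the window were found in a GENCODE v29 transcript of the same gene for 33 of the 36. For the other 3 no match was found. Both strands were searched for the androgen response hexamer AGAACA, for the full palindrome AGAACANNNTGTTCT, which contains the hexamer on each strand, for the forkhead motif TGTTTAC and for the amino acid response element core TGATGCAA. The hexamer was found in 1 of the 36 promoters (2.78%), against 10.1% of the 18552 promoters of listed genes and 14.8% of all 35116 promoters in the RefSeq table. The palindrome, the forkhead motif and the response element core were found in 0 of 36, against 0, 2.67 and 0.55% of promoters of listed genes. These counts describe letters in a short window and say nothing of distal sites. Median GC content was 69.7% over the 36 windows and 64.3% over the promoters of listed genes.

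Upstream sequences are shown for the 3 genes with a RefSeq promoter whose log2 fold change with enzalutamide was below -0.5, a set picked after the values were seen, since these genes carry the largest enzalutamide responses described further on. Each runs 5′ to 3′ on the gene's strand over the 250 bases before the start, and capitals mark a hexamer match. STK39 (Gene ID 27347) lies on the minus strand and its sequence covers chr2:168247596-168247845; PMEPA1 (56937) is on the minus strand at chr20:57690687-57690936, and HPGD (3248) on the minus strand at chr4:174522894-174523143. The only match begins at position -112 from the start of STK39. GC content differed among them, at 76.4% for STK39, 56.8% for PMEPA1 and 42% for HPGD.
STK39: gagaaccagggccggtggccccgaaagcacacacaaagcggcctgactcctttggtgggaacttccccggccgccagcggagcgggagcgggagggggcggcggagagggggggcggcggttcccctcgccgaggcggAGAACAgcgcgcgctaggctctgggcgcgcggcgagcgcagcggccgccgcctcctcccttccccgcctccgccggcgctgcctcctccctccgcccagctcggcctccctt
PMEPA1: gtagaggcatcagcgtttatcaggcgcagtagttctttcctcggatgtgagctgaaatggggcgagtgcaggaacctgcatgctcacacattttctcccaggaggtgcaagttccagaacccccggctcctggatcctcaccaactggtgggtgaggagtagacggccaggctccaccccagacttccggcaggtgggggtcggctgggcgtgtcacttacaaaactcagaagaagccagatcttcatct
HPGD: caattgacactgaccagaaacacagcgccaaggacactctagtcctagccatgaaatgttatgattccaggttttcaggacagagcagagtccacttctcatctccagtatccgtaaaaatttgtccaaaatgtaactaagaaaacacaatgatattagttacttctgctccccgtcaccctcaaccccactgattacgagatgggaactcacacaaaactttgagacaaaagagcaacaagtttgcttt

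Levels in vehicle-treated cells spanned a wide range. On the deposited FPKM scale, which allows for transcript length, the most abundant transcripts were GSR, the glutathione reductase gene (116 ± 3.15 FPKM, mean ± SD, n = 3), and SPDEF, an ETS-family transcription factor of secretory epithelia (110 ± 6.81), whose replicate ranges overlapped. DBI, the acyl-CoA-binding protein gene, followed at 92.9 ± 3.54, below both. CREB3L4, AZGP1 and PMEPA1 came next at 76.2 ± 6.38, 74.2 ± 3.68 and 73.3 ± 2.52 FPKM, and their ranges overlapped. GSR lay at the 97.4th percentile of listed genes. At the other end were PTPN21, a tyrosine phosphatase gene (0.839 ± 0.0339 FPKM), IQGAP2, a scaffold protein gene (0.597 ± 0.0339), and ALDH1A3, a retinaldehyde dehydrogenase gene (0.08 ± 0.0331), which did not overlap in range. The receptor genes MERTK (2.27 ± 0.0399), LIFR (1.95 ± 0.155) and BMPR1B (6.19 ± 0.251) were all in the lower part of the order.

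**Figure D1:**
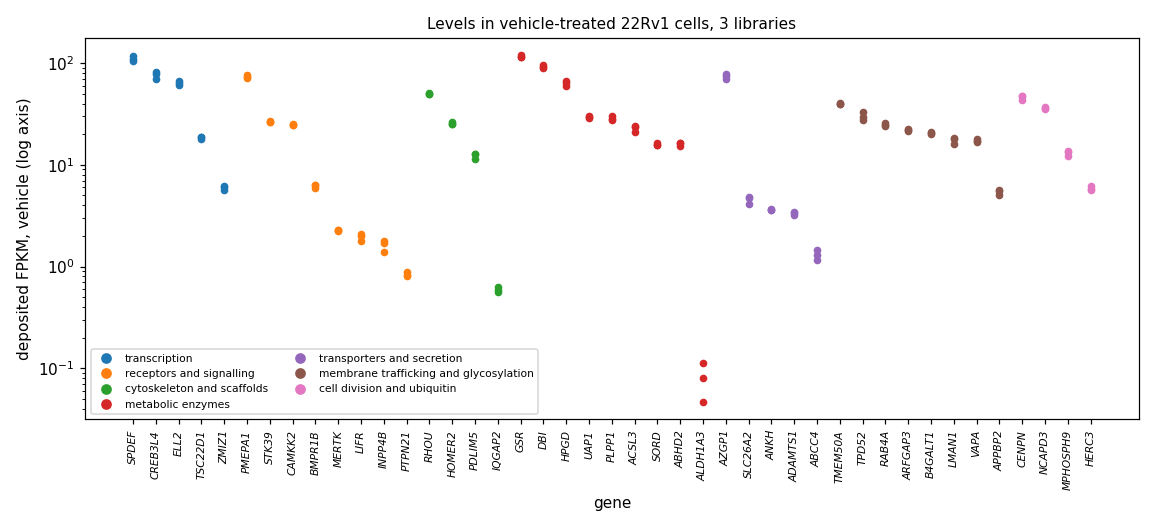
Deposited FPKM of the 43 genes in vehicle-treated 22Rv1 cells on a log axis, one point per library (3 libraries), with genes ordered by role and then by level. Most genes lie above 10 FPKM, and ALDH1A3 stands lowest at a mean of 0.08 FPKM.

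Enzalutamide against vehicle shows what an inhibitor of androgen signalling did to these genes. In these cells 13 of the 43 genes fell and 0 rose by edgeR's quasi-likelihood test (30.2% lower, against 1.09% of the 17702 genes tested called lower, 0.35% called higher and 1.44% called in either direction). The falls were moderate, with the largest for PMEPA1, which fell by 35.6%, and the smallest for RAB4A, which fell by 12.8%. At an unadjusted p under 0.05, 22 genes were lower and 0 higher, and DESeq2 and limma-voom also called 0 higher. The median log2 fold change was -0.16 over the 43 genes and 0.00 over all genes tested, and 40 of the 43 point estimates were negative. Replicate ranges did not overlap, with enzalutamide lower, for 27 of the 43 genes, against 8.19% of all genes, and with enzalutamide higher for 0, against 8.87%.

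Among signalling genes, PMEPA1, which encodes a membrane adaptor that restrains TGF-β signalling, changed most. It stood at 415, 390 and 391 CPM in the vehicle libraries and at 257, 253 and 261 CPM with enzalutamide (log2 fold change -0.63, SE 0.04, adjusted p = 1.13e-07). The 3 enzalutamide libraries sat close together and far below every vehicle library. STK39, the gene of a stress-activated kinase that controls ion cotransporters, was at 96, 97 and 96.1 CPM with vehicle and at 62.1, 68.5 and 65.5 CPM with enzalutamide (-0.56, SE 0.05, 8.24e-06). BMPR1B, a receptor of bone morphogenetic proteins, was at 36.6, 38.3 and 39.7 CPM and then at 27.4, 29.6 and 28 CPM (-0.43, SE 0.07, 0.00205). Neither gene's ranges overlapped. LIFR, the receptor gene of leukaemia inhibitory factor, fell by 28.7% (adjusted p = 0.0124), but without vehicle replicate 2 or 3, or without enzalutamide replicate 1 or 2, its adjusted p was 0.0646 to 0.089.

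The transcriptional regulators ELL2 and TSC22D1 fell too. ELL2, an elongation factor of RNA polymerase II, was at 394, 406 and 437 CPM with vehicle and 264, 289 and 289 CPM with enzalutamide (-0.56, SE 0.07, 0.000216). TSC22D1, a leucine zipper gene induced by TGF-β, was at 87.1, 84.9 and 83.2 CPM against 67.7, 71.6 and 66.5 CPM (-0.31, SE 0.05, 0.000817). In both, the lowest vehicle library was above the highest enzalutamide library. SPDEF (-0.11, adjusted p = 0.628), CREB3L4 (-0.01, 95% confidence interval -0.13 to 0.12) and ZMIZ1, a coactivator gene (-0.17, 0.222), did not pass.

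Of 9 metabolic enzyme genes, 3 fell. HPGD, whose product inactivates prostaglandins, was at 172, 184 and 195 CPM with vehicle and at 123, 131 and 128 CPM with enzalutamide (-0.53, SE 0.07, 0.000151). DBI was at 63.4, 57.4 and 60.7 CPM and then at 48.2, 46.1 and 44.3 CPM (-0.39, SE 0.06, 0.00256). ACSL3, a long-chain acyl-CoA synthetase of lipid droplets, was at 130, 141 and 149 CPM and then at 109, 111 and 112 CPM (-0.34, SE 0.06, 0.00442). The enzalutamide libraries lay below all vehicle libraries for each of these. The remaining 6 ran from -0.18 for ABHD2, a lipase gene (adjusted p = 0.087), to 0.21 for ALDH1A3, whose low count gave an interval of -0.56 to 0.97.

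Other genes that fell were RHOU, HERC3, PDLIM5 and RAB4A. RHOU, the gene of a small GTPase that acts on the cytoskeleton, was at 220, 220 and 221 CPM with vehicle and at 171, 178 and 180 CPM with enzalutamide (-0.33, SE 0.04, 0.000391). HERC3, a ubiquitin ligase gene, was at 32.9, 29.8 and 31 CPM and then at 23.8, 24.5 and 24.2 CPM (-0.37, SE 0.06, 0.00298). Both pairs of ranges were separate, although HERC3 had an adjusted p of 0.131 when replicate 1 was left out of every group. PDLIM5, a scaffold gene of the actin cytoskeleton, fell by 17.7% (adjusted p = 0.029), and RAB4A, a GTPase gene of endosomal recycling, fell by 12.8% (0.0275). PDLIM5 had an adjusted p of 0.0813 to 0.162 without vehicle replicate 2 or 3 or any 1 enzalutamide library, and RAB4A of 0.0513 to 0.166 without any 1 of the 6 libraries. None of the 5 genes of transporters and secreted proteins passed, with log2 fold changes from -0.19 for the sulfate transporter SLC26A2 to 0.03 for the pyrophosphate exporter ANKH. INPP4B, a phosphoinositide phosphatase gene, was at -0.38 (adjusted p = 0.0774) and MERTK, a receptor tyrosine kinase gene, at -0.28 (0.156). INPP4B, the synaptic scaffold gene HOMER2 (-0.19) and ABHD2 were called lower by DESeq2 (adjusted p = 0.0154, 0.0106 and 0.0253).

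**Figure D2:**
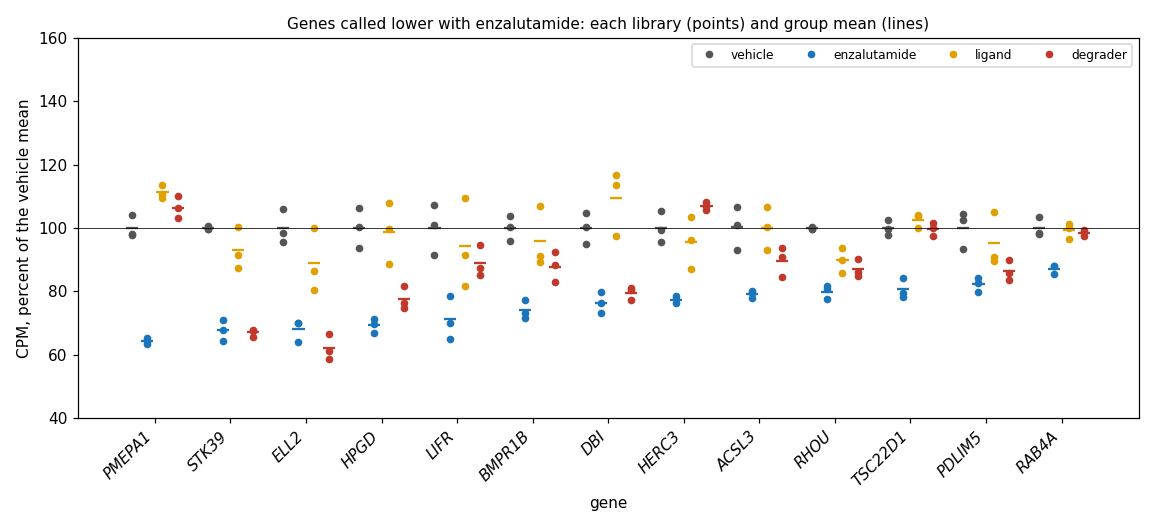
Normalised level (CPM as a percentage of the vehicle mean, vertical axis) of the 13 genes that fell with enzalutamide, with points for the 3 libraries of each group and short lines for group means. The enzalutamide points lie below all vehicle points for every gene; the degrader points of PMEPA1, HERC3, TSC22D1 and RAB4A lie near 100%, and those of STK39 and ELL2 lie near the enzalutamide points.

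The list of hypoxia and glycolysis genes also had a lower mean with enzalutamide, at 5.85 ± 0.24 log2 CPM against 6.19 ± 0.24 with vehicle (mean ± SD, n = 3). With the ligand the mean was about as low, at 5.88 ± 0.25, and 0 of the 15 genes were called by edgeR for either compound. The part of this list in the falls above was not tested. When replicate 1, the highest library for that list, was left out of every group, 10 of the 43 genes were called lower, 9 of them among the 13; LIFR (adjusted p = 0.0928), PDLIM5 (0.0646), RAB4A (0.176) and HERC3 were the genes lost. Luminal markers summed to 3190 to 3300 CPM with enzalutamide and 3530 to 3710 CPM with vehicle. Fewer cells of a type and less RNA per cell cannot be told apart in bulk libraries. The authors' deposited table had an adjusted p under 0.05 for 16 of the 43 genes (2.21% of the genes with a value), among them all 13 called by edgeR.

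The ligand was next compared with vehicle, to show what the autophagy-activating compound did by itself. None of the 43 genes passed in either direction by edgeR, where 0.0339% of all genes were called lower, 0.203% higher and 0.237% in either direction. Replicate ranges did not overlap, with the ligand lower, for 6 of the 43 genes, against 5.71% of all genes. With the ligand higher this held for 2 of the 43, against 5.61%. Outside ALDH1A3, log2 fold changes ran from -0.17 to 0.19, and the 95% intervals lay within -0.32 and 0.40. At an unadjusted p under 0.05, 6 genes were lower and 1 higher; limma-voom called 0, and DESeq2 called PMEPA1 alone (0.16, adjusted p = 0.0336). The authors' deposited table likewise had 1 gene under 0.05, PMEPA1 (0.0404), against 0.866% of the genes with a value.

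PMEPA1 had 437, 453 and 442 CPM with the ligand, above all vehicle libraries (0.15, edgeR adjusted p = 0.247). RHOU had 198, 189 and 207 CPM, below the vehicle libraries (-0.16, 0.284), and ABHD2 had 129, 136 and 140 CPM against 143, 151 and 155 CPM (-0.15, 0.409). These 3 genes had the smallest p-values of the 43, and in each the ligand range was separate from that of vehicle. For other genes the ligand libraries spread more widely. ELL2 was at 357, 332 and 412 CPM, and DBI at 68.8, 70.6 and 59 CPM, so that both overlapped with vehicle.

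Set directly against enzalutamide, the ligand gave higher levels of 13 of the 43 genes and lower levels of 0 (30.2% higher, against 1.37% of all genes called higher, 0.667% called lower and 2.04% in either direction). At an unadjusted p under 0.05 there were 18 higher and 0 lower, and DESeq2 and limma-voom called 0 lower. PMEPA1 differed most (0.79, SE 0.04, adjusted p = 9.25e-09), followed by INPP4B (0.58, SE 0.10, 0.00291), DBI (0.52, SE 0.06, 0.000136), HPGD (0.51, SE 0.06, 0.000187) and STK39 (0.46, SE 0.05, 7.62e-05). Ranges did not overlap, with the ligand higher, for 19 of the 43 genes, against 6.56% of all genes. With the ligand lower this held for 0 of the 43, against 6.08%. INPP4B was at 16.2, 17.8 and 20.8 CPM with the ligand and 12.4, 12.3 and 12 CPM with enzalutamide, without overlap. AZGP1, which encodes a secreted lipid-mobilising glycoprotein, was higher by 0.24 (0.0355), a call lost without enzalutamide replicate 2 or 3 or ligand replicate 1 or 2 (0.113 to 0.185). LIFR (0.40, 0.041), RAB4A (0.19, 0.0308) and HERC3 (0.30, 0.0132) lost theirs in the same way, at 0.108 to 0.199 without enzalutamide replicate 1 or 2 or ligand replicate 1 or 3 for LIFR, at 0.0728 to 0.148 without any 1 library but ligand replicate 2 for RAB4A, and at 0.0525 to 0.0606 without enzalutamide replicate 1 or 3 or ligand replicate 1 for HERC3. Without replicate 1 of every group the count was 8, and ELL2 (0.0619) was among those lost. This comparison shares the enzalutamide libraries with the comparison against vehicle and is not a separate measurement of them.

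The degrader against vehicle is the comparison that the study was built around. Of the 43 genes, 18 fell and 5 rose by edgeR (41.9 and 11.6%, against 16.4% of all genes called in each direction and 32.7% in either), and 20 did not pass. The shares over all genes, here and in the other comparisons, were not matched to the level of the 43 genes. The part of level in these counts was not tested. The median log2 fold change was -0.10, against 0.01 over all genes. Falls reached 38% for ELL2, and no called gene changed by 1 or more on the log2 scale. Replicate ranges did not overlap, with the degrader lower, for 18 of the 43 genes, against 22.1% of all genes. With the degrader higher this held for 7 of the 43, against 23.1%. The authors' deposited table had an adjusted p under 0.05 for 23 of the 43 genes, the same 23 as edgeR, against 34.9% of genes with a value. Luminal markers summed to 2920 to 3020 CPM with the degrader, below vehicle, with 6 of 10 called lower. Of the 15 hypoxia and glycolysis genes 6 fell, with a list mean of 5.71 ± 0.21 log2 CPM; the part of either list in the changes of the 43 genes was not tested. Enzalutamide and the degrader were compared with the same 3 vehicle libraries, so that their fold changes are not independent.

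**Figure D3:**
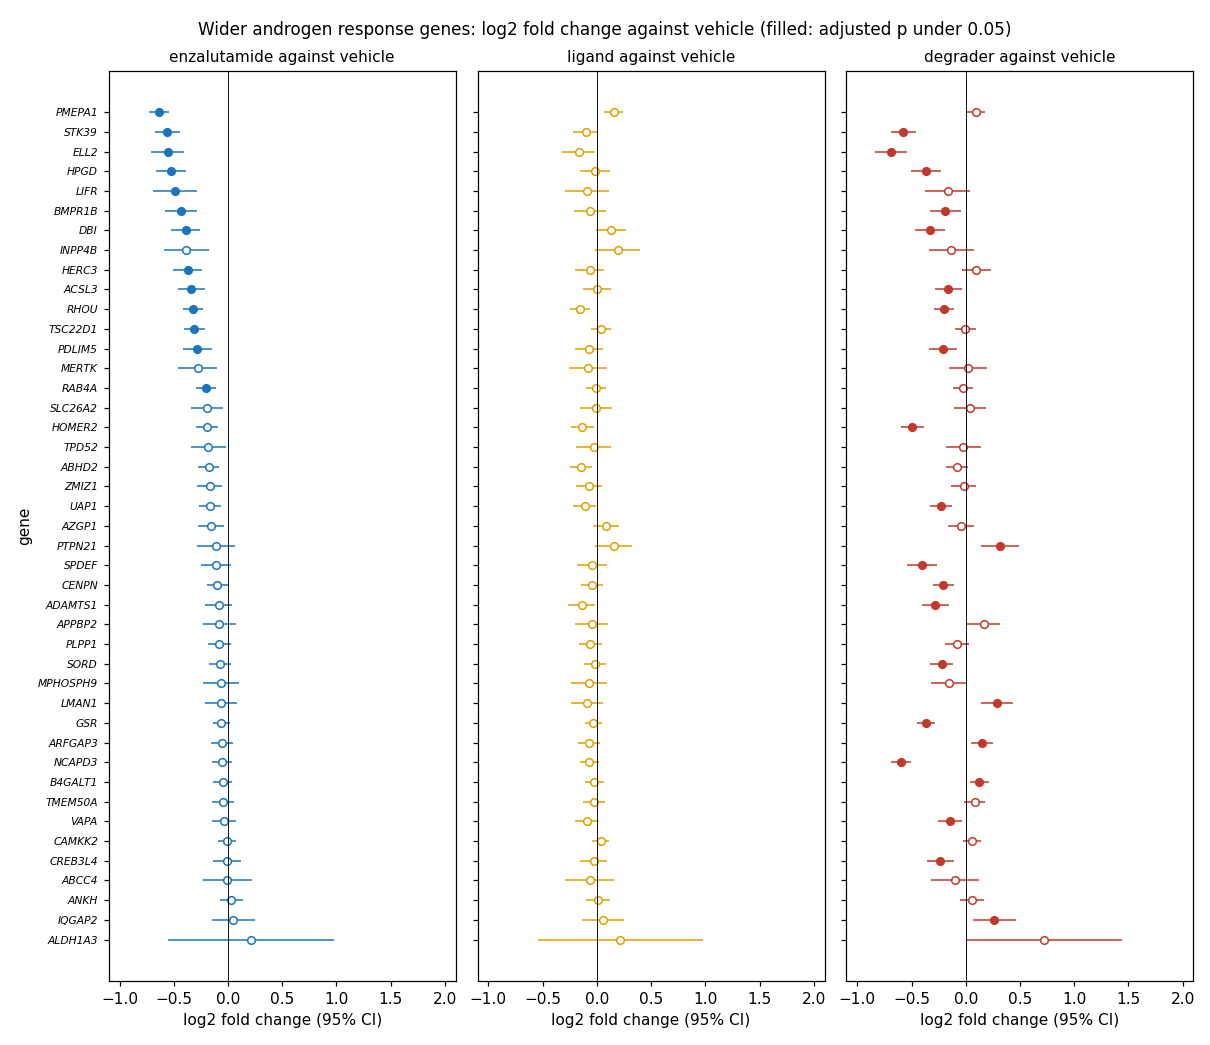
Log2 fold change of the 43 genes against vehicle with 95% confidence intervals (horizontal axis), for enzalutamide, the ligand and the degrader, in the order of the enzalutamide values; filled points have an adjusted p under 0.05. For enzalutamide 13 points are filled, all below 0; the ligand panel has no filled point; in the degrader panel 18 filled points lie below 0 and 5 above.

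ELL2 and STK39 were the genes with large falls under the degrader that also stood low with enzalutamide. ELL2 was at 242, 252 and 274 CPM with the degrader (log2 fold change -0.69, SE 0.07, adjusted p = 1.84e-06), and STK39 at 63.2, 65.5 and 65.1 CPM (-0.58, SE 0.05, 5.62e-07). The degrader libraries of both genes lay far below the vehicle libraries given above. HPGD was at 137, 140 and 150 CPM (-0.37, SE 0.06, 0.000364) and DBI at 48.6, 49.1 and 46.7 CPM (-0.33, SE 0.06, 0.000904), again below every vehicle library. RHOU fell by 12.9% (0.0023), and PDLIM5 (-0.21, 0.0155), BMPR1B (-0.19, 0.0461) and ACSL3 (-0.16, 0.0494) fell by little. Leaving out vehicle replicate 2 or 3, or degrader replicate 1 or 2, ended the calls of these last 3 genes, at 0.0565 to 0.0686 for PDLIM5, 0.107 to 0.165 for BMPR1B and 0.101 to 0.211 for ACSL3.

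NCAPD3, a condensin II subunit gene needed for chromosome compaction, had the smallest p of the 43. Its levels were 295, 299 and 294 CPM with vehicle and 188, 200 and 198 CPM with the degrader (-0.60, SE 0.04, 1.87e-08), while enzalutamide left 280, 290 and 285 CPM (-0.05, interval -0.14 to 0.03). HOMER2 was at 57.4, 54.3 and 55.1 CPM with vehicle and 40.4, 38.8 and 39.2 CPM with the degrader (-0.49, SE 0.05, 1.27e-06). GSR was at 386, 397 and 389 CPM and then at 302, 305 and 303 CPM (-0.36, SE 0.04, 1.78e-06). In all of these the degrader libraries were tightly grouped beneath the other 9 libraries. SPDEF, at 250, 227 and 223 CPM with vehicle, was at 190, 180 and 161 CPM with the degrader (-0.40, SE 0.07, 0.000183). CENPN, a centromere protein gene, fell by 13.3% (0.00268), the protease gene ADAMTS1 fell by 17.8% (0.00139), the UDP-GlcNAc synthesis gene UAP1 fell by 14.5% (0.00197), the sorbitol dehydrogenase gene SORD fell by 14.3% (0.00199) and CREB3L4, an endoplasmic reticulum-anchored transcription factor gene, fell by 15.1% (0.0054). VAPA, a gene of membrane contact sites, fell by 9.59% (0.0444), and its adjusted p was 0.0603 to 0.152 without vehicle replicate 2 or 3 or any 1 degrader library.

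The 5 rises were small. LMAN1, a cargo receptor for glycoproteins leaving the endoplasmic reticulum, went from 86.9, 94.1 and 98.3 CPM to 110, 110 and 121 CPM (0.29, SE 0.07, 0.00405). PTPN21 went from 6.3, 5.73 and 5.94 CPM to 7.51, 7.27 and 7.62 CPM (0.32, SE 0.08, 0.00653). Both were higher in each degrader library than in any vehicle library. The other rises were those of ARFGAP3, a regulator of Golgi coat assembly, from 68, 65.8 and 65.4 to 76.3, 71.2 and 74.2 CPM (0.15, SE 0.05, 0.0206), of B4GALT1, a Golgi galactosyltransferase gene, from 95.4, 96 and 95.2 to 103, 105 and 105 CPM (0.13, SE 0.04, 0.0251), and of IQGAP2 from 3.83, 4.01 and 3.67 to 4.4, 4.89 and 4.54 CPM (0.26, SE 0.09, 0.036). Leaving out single libraries ended these 3 calls, and the count of rises was 2 or 3 without any 1 vehicle library or without degrader replicate 2 or 3. For ARFGAP3 this held for vehicle replicates 2 and 3 and degrader replicates 1 and 3 (0.0521 to 0.0833), for B4GALT1 for each vehicle library and degrader replicates 2 and 3 (0.0608 to 0.084), and for IQGAP2 for vehicle replicates 1 and 3 and degrader replicates 2 and 3 (0.0642 to 0.134). Of the 8 genes of membrane traffic and glycosylation, 3 rose and 1 fell (median 0.10), and of the 9 metabolic enzyme genes 6 fell and 0 rose by edgeR (median -0.22), where 16.4% of all genes were called in each direction. Of these, ARFGAP3, B4GALT1, VAPA and ACSL3 are genes whose calls were lost without single libraries, as given for each. The roles were set with earlier results of these data known and these are only 2 of the role groups, so the counts are a description.

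**Figure D4:**
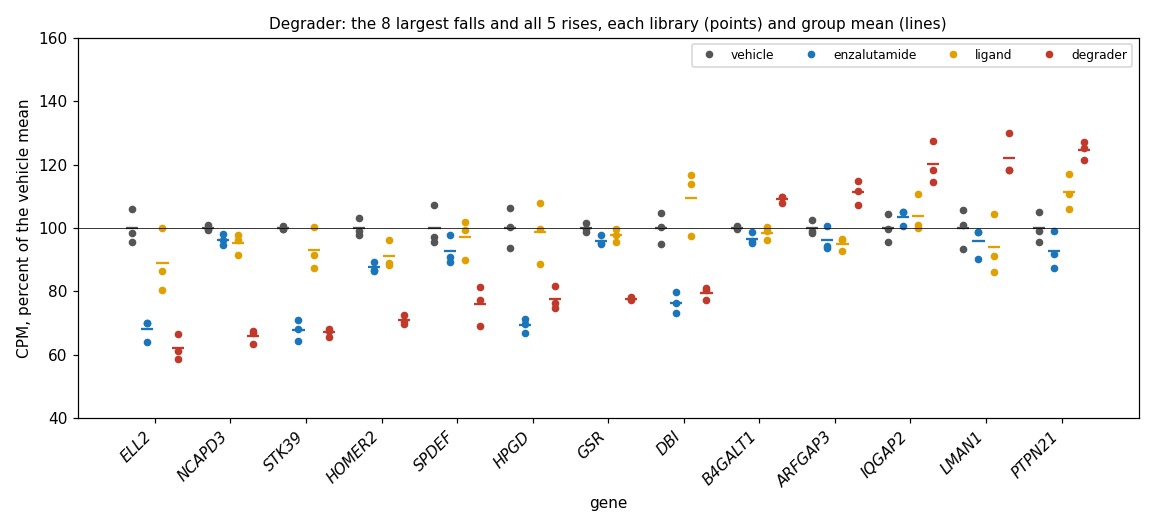
Normalised level (CPM as a percentage of the vehicle mean, vertical axis) of the 8 largest falls and all 5 rises with the degrader, with points for the 3 libraries of each group and short lines for group means. For NCAPD3, HOMER2, SPDEF and GSR the degrader points lie below those of the other 3 groups; for ELL2, STK39, HPGD and DBI the enzalutamide points are low as well.

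The difference between degrader and enzalutamide was tested directly. Against enzalutamide, 16 of the 43 genes were higher with the degrader and 7 lower (37.2 and 16.3%, against 16.3% of all genes called higher, 16.1% called lower and 32.3% in either direction), with a median of 0.13. PMEPA1 led the higher genes, at 439, 424 and 411 CPM with the degrader (0.72, SE 0.04, adjusted p = 2.53e-09). HERC3 was at 33.8, 33.4 and 33 CPM (0.47, SE 0.06, 2.69e-05) and TSC22D1 at 86.5, 82.9 and 85.2 CPM (0.31, SE 0.05, 7.58e-05). Against vehicle these 3 genes were at 0.09, 0.10 and 0.00 on the log2 scale with the degrader, and none was called; PMEPA1 and TSC22D1 overlapped the vehicle range and HERC3 lay just above it. Ranges of degrader and enzalutamide did not overlap, with the degrader higher, for 23 of the 43 genes, against 23.9% of all genes. With the degrader lower this held for 9 of the 43, against 22.5%. RAB4A was also higher than with enzalutamide (0.18, SE 0.04, 0.00512), as were PTPN21 (0.43), LMAN1 (0.35), ARFGAP3 (0.21) and B4GALT1 (0.18).

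The same test gave lower levels with the degrader for NCAPD3 (-0.54, SE 0.04, 6.5e-08), GSR (-0.31, SE 0.04, 1.28e-05), HOMER2 (-0.30, SE 0.05, 0.000204), SPDEF (-0.29, SE 0.07, 0.00271), CREB3L4 (-0.23, SE 0.06, 0.00712), ADAMTS1 (-0.20) and SORD (-0.15). STK39 had a difference of -0.02 (interval -0.13 to 0.10) and ELL2 of -0.13 (-0.28 to 0.02, adjusted p = 0.168), and neither passed. HPGD was at 0.16 (interval 0.02 to 0.30, adjusted p = 0.0725, or 0.0226 with only these groups in the fit) and DBI at 0.06 (-0.08 to 0.20). The count of higher genes depended on single libraries, being 10 without enzalutamide replicate 1 and 9 without degrader replicate 3. RHOU (0.13) lost its call without any 1 of the 6 libraries (0.0511 to 0.162), and ACSL3 (0.18) and TMEM50A (0.13) lost theirs without any 1 but degrader replicate 1 (0.0617 to 0.133 and 0.0867 to 0.17). SORD was lost without any 1 enzalutamide library or degrader replicate 3 (0.0563 to 0.124), and SLC26A2 (0.23) without enzalutamide replicate 1 or 3 or degrader replicate 2 or 3 (0.0543 to 0.0885). LIFR (0.32) was lost without enzalutamide replicate 1 or 2 or degrader replicate 3 (0.0627 to 0.0889), and ADAMTS1 without enzalutamide replicate 3 or degrader replicate 2 or 3 (0.0518 to 0.0649). BMPR1B (0.24) was lost without enzalutamide replicate 1 or degrader replicate 3 (0.055 to 0.0641), APPBP2 (0.25) without enzalutamide replicate 2 or degrader replicate 3 (0.0564 to 0.0854), and MERTK (0.30) without degrader replicate 2 (0.0568). The other 13 calls held without any 1 of the 6 libraries.

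**Figure D5:**
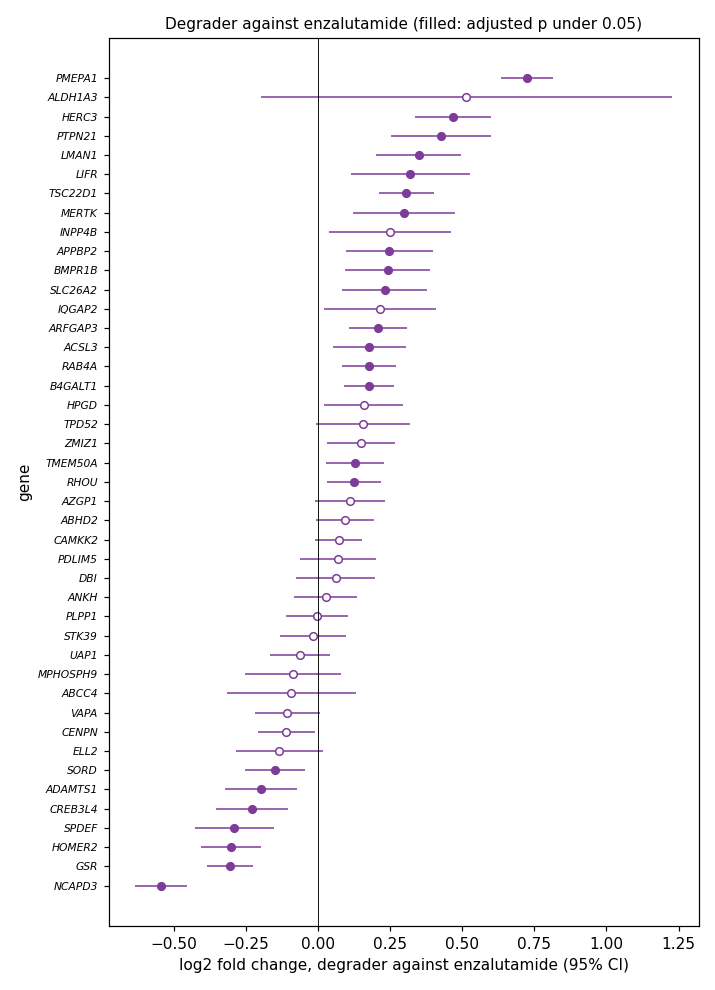
Log2 fold change of each of the 43 genes with the degrader against enzalutamide, with 95% confidence intervals (horizontal axis); filled points have an adjusted p under 0.05. PMEPA1 stands highest at 0.72 and NCAPD3 lowest at -0.54.

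Against the ligand, 12 of the 43 genes were lower with the degrader and 4 higher (27.9 and 9.3%, against 14.2 and 14.3% of all genes and 28.5% in either direction). Ranges did not overlap, with the degrader lower, for 14 of the 43 genes, against 18.6% of all genes. With the degrader higher this held for 7 of the 43, against 20.1%. The lower ones were NCAPD3 (-0.53, SE 0.04, adjusted p = 1.42e-07), ELL2 (-0.52, SE 0.07, 4.88e-05), STK39 (-0.47, SE 0.05, 7.81e-06), DBI (-0.46, SE 0.06, 6.43e-05), HOMER2 (-0.36), SPDEF (-0.36), HPGD (-0.35), GSR (-0.33), INPP4B (-0.33), CREB3L4 (-0.21), SORD (-0.20) and CENPN (-0.16). LMAN1 (0.38, SE 0.07, 0.000633), ARFGAP3 (0.23), APPBP2, a gene of protein sorting (0.21), and B4GALT1 (0.15) were higher, a count that was 2 without degrader replicate 2. PMEPA1, at -0.06 (interval -0.15 to 0.02), did not pass. INPP4B lost its call without ligand replicate 3 or degrader replicate 1 or 2 (0.0509 to 0.0866), CREB3L4 without ligand replicate 1 or 2 or degrader replicate 2 (0.0523 to 0.0717), CENPN without replicate 1 of either group (0.0648 to 0.0861), B4GALT1 without degrader replicate 2 (0.0576) and APPBP2 without ligand replicate 1 or 2 or degrader replicate 2 or 3 (0.0691 to 0.191).

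Besides ZMIZ1, MERTK, INPP4B, ALDH1A3, ABHD2, SLC26A2, AZGP1 and APPBP2, a further 7 genes were not called by edgeR against vehicle for any compound. CAMKK2, a kinase upstream of AMPK, had log2 fold changes of -0.01, 0.03 and 0.06 for enzalutamide, ligand and degrader. The lysophospholipid phosphatase gene PLPP1 was at -0.08, -0.06 and -0.08, ANKH at 0.03, 0.01 and 0.06, the drug and nucleotide exporter ABCC4 at -0.01, -0.07 and -0.10, and MPHOSPH9, a centrosomal protein gene, at -0.07, -0.07 and -0.15. TMEM50A was at -0.05, -0.03 and 0.08. TPD52, a vesicle traffic gene amplified in prostate tumours, was at -0.18, -0.03 and -0.02, and its enzalutamide range lay below that of vehicle without passing (adjusted p = 0.436). The exons of 8 of the 43 genes overlap those of an opposite-strand gene that is also listed, by GENCODE v29, and whether strand was used in counting is not stated. The overlap was largest for PLPP1 with MTREX (27% of its exon bases) and CENPN with CMC2 (14.5%), while CREB3L4 shares 4.8 and 5.1% with the abundant genes JTB and SLC39A1; reads of these genes may be mixed.

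The remaining genes of the androgen programme were read from 3 further lists. Of 11 classic markers tested, enzalutamide lowered 6, the ligand 1 and the degrader 8, and 0 rose by edgeR in any of these (medians -0.40, -0.08 and -0.59). With single libraries or replicate 1 of every group left out, the count called with enzalutamide was 4 or 5. The shares of all genes called lower were 1.09, 0.0339 and 16.4%, and called higher 0.35, 0.203 and 16.4%, which also stand beside the lists that follow. FKBP5, a co-chaperone gene, was at -1.25, -0.04 and -1.0 in the order enzalutamide, ligand, degrader, and SLC45A3, a transporter gene of luminal cells, at -1.12, 0.13 and -0.41. KLK2 (-0.42, -0.32 and -1.09) and KLK3 (-0.34, -0.15 and -0.92), the kallikrein genes, were lower with the degrader than with enzalutamide (-0.67 and -0.58, adjusted p = 4.94e-07 and 5.72e-06), whereas SLC45A3 was higher (0.71, 6.89e-07) and FKBP5 slightly higher (0.25, 0.000451). The ligand's call was that of KLK2 (adjusted p = 0.0331) and was absent without any 1 of the 6 libraries. TMPRSS2, a protease gene, was at -0.07, 0.07 and -0.11 and was not called. Of 12 lipid synthesis genes that androgens are known to raise, 1 fell with enzalutamide, ELOVL5 (-0.59), 9 rose with the ligand, and 11 rose and 1, again ELOVL5 (-0.31), fell with the degrader (medians -0.07, 0.32 and 1.22). The ligand count was 5 without vehicle replicate 3 or without ligand replicate 1. Of 47 further androgen-responsive genes, 2 fell with enzalutamide, AKAP12 (-0.93) and MAF (-1.35), 0 passed with the ligand by edgeR, and 12 rose and 12 fell with the degrader (medians -0.07, -0.02 and -0.01).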

How the data were processed

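Values came from the gene table that the authors deposited. Per the submitters' processing notes, HISAT2, StringTie and GRCh37 were used, with versions and roles not given. Per the file headers, it holds read counts and FPKM for each gene and library; the counts are whole numbers without normalization and no gene listed has fewer than 1 read in any library. The authors scaled FPKM to transcript length and library size. The deposited p-value columns give the authors' Benjamini-Hochberg adjusted p; their test was not named. Of the other per-sample columns, 24 were not used.

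Of 18668 genes, 17702 passed edgeR's filterByExpr (minimum count 10, total 15) and 966 did not. Counts were scaled by TMM and fitted with a robust quasi-likelihood model on all 12 libraries (8 residual degrees of freedom), with Benjamini-Hochberg adjustment over all genes and a threshold of 0.05. Levels are CPM; log2 CPM used a prior count of 2. Replicates differed beyond counting error, with a chi-square of 5.56 to 22.8 per degree of freedom, so their spread set the precision. R 4.3.3, edgeR 4.0.16, limma 3.58.1 and DESeq2 1.42.0 were used, and the fit was tested on simulated data. Alternatives were DESeq2, limma-voom, RLE factors, no filter, a replicate block, 2-group fits and left-out libraries. Values per library were given for the 10 smallest p with enzalutamide, and the 8 largest falls and up to 8 rises with the degrader. Per-library values of other genes, and the genes named from the other lists beyond KLK2, KLK3, FKBP5 and SLC45A3, were chosen after their values were seen. The 43 genes, their roles and the other lists were chosen with earlier results of these data known.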

Additional observations from a re-analysis of the deposited data

How the results depend on the processing

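No call of the 43 genes changed direction under any alternative run. DESeq2, limma-voom, RLE factors, no filter on low counts and the 2-group fit each kept all 13 falls with enzalutamide. In other comparisons some calls were lost. The 2-group edgeR fit kept 9 of 13 for the ligand against enzalutamide, without LIFR, AZGP1, RAB4A and HERC3 (adjusted p = 0.051 to 0.15). It kept 21 of 23 for the degrader against vehicle and 14 of 16 against the ligand. For the degrader against enzalutamide, RLE factors kept 21 of 23 and no filter 22. With limma-voom, 22 of 23 were kept for the degrader against vehicle and 12 of 13 for the ligand against enzalutamide. With libraries left out singly, or replicate 1 of every group, the count called lower with enzalutamide was 10 to 13; the degrader against vehicle gave 16 to 21 changed genes, 14 to 18 lower and 2 to 5 higher. The degrader against enzalutamide gave 14 to 23 changed, 5 to 7 lower and 9 to 16 higher, against the ligand 12 to 17 changed, 10 to 13 lower and 2 to 5 higher, and the ligand against enzalutamide 8 to 13, all higher. The classic marker count with the ligand was 0 in each such fit, and the ligand's lipid synthesis count 5 to 9. For enzalutamide the classic marker count was 4 to 5 in these fits, and for the degrader 8 to 9. For the ligand against vehicle, DESeq2 called 1 gene, higher. The degrader against the ligand had 2 higher genes in the 2-group fit, in which the ligand's classic marker count was 0. The lipid synthesis count with enzalutamide was 2 by DESeq2 and in the 2-group fit. The cause of these shifts was not tested.

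Same-numbered libraries did not deviate together in every pair (correlations of -0.03 to 0.21 over all genes), and the main fit had no replicate term. For replicate 1 the correlations were positive in every comparison (0.05 to 0.21). The hypoxia and glycolysis list was also highest in replicate 1 of every group. An effect shared by same-numbered libraries was modelled only in the replicate block. With the replicate block, the ligand against vehicle had 3 called genes, 2 lower (RHOU, adjusted p = 0.0371, and ABHD2, 0.0452) and 1 higher (PMEPA1, 0.034), and the further androgen-responsive genes had 7 calls with enzalutamide; the block lost no call of the 43 genes and added 3 for enzalutamide and 4 for the degrader against vehicle, 8 for the degrader against enzalutamide (ELL2 at 0.0184 and HPGD at 0.0126 among them), 5 for the degrader against the ligand and 2 for the ligand against enzalutamide. The 4 added for the degrader were LIFR (0.0453) and MPHOSPH9 (0.00825), lower, and PMEPA1 (0.0475) and APPBP2 (0.0233), higher. Depth limited ALDH1A3 most, with 12 reads in its lowest library.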
